A study of Mus musculus with 3 samples.

Results

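The membrane-spanning 4A (Ms4a) family was followed in spleen RNA measured against a common reference RNA. Its members were all probes whose gene symbol, in the platform's probe annotation, begins with Ms4a and a digit: 15 probes of 13 genes, out of 16273 probes in the table. Of these, 12 probes of 10 genes held a ratio on all 3 arrays, and the other three probes, of Ms4a6b, Ms4a6d and Ms4a13, were listed at 0 on every array. Each array compared purchased mouse spleen total RNA, made into cRNA by 1 round of amplification and carrying the red dye Cy5, with purchased Universal Mouse Reference RNA, a pool from mouse cell lines treated in the same way and carrying the green dye Cy3. The 3 arrays form 1 group, all labelled in the same orientation, so dye bias and a true difference in RNA cannot be told apart. The labels give no strain, age, sex or number of animals, and name a single product for each RNA. The p-values therefore measure the spread between arrays, which may be technical, and leave out the spread of the reference and of other spleens.

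The Ms4a genes encode small proteins that cross the cell membrane several times and lie in 1 cluster on mouse chromosome 19. The best known is Ms4a1, which encodes CD20, the B cell surface protein targeted by rituximab. Others are used by immune cells: Ms4a2 encodes the beta chain of the high-affinity IgE receptor of mast cells and basophils, Ms4a4b is a T cell gene, and the Ms4a6 genes and Ms4a7 are known from monocytes and macrophages. In the mouse nose, Ms4a proteins also act as chemoreceptors of a subset of olfactory neurons. Spleen is rich in B cells, T cells and macrophages, whereas the reference is a mixture of lines.

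Values are log ratios as deposited, and the sources used here do not state their base or numerator. Positive ratios are read as likely higher in spleen, because red is by custom divided by green and spleen carried the red dye. Lymphocyte genes being positive and matrix genes negative was part of that reading, so the sign of a B cell gene such as Ms4a1 does not independently show the direction. The titles of the samples, which name the reference first, could mean the opposite order. An exact 0 was read as no measurement: 3115 of the 16273 probes were at 0 on every array, the probe of the glycolysis enzyme Gapdh, which every cell uses, among them, so Ms4a6b, Ms4a6d and Ms4a13 are only known to be listed at 0. With limma, 68.3% of the 11086 probes measured on all 3 arrays passed the test against 0 (adjusted p under 0.05), 32.3% positive and 36% negative. Over genes, 70.3% of 6077 passed, 33.2% positive and 37.1% negative. A count of calls is read against these shares. The number of arrays limits the precision, and no intensities were analysed here. In a bulk tissue RNA, fewer cells of a type and less RNA per cell cannot be told apart.

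Of the 12 measured Ms4a probes, 7 were positive and 3 negative past the test, and 2 did not pass. The share past the test, 10 of 12, is read against 68.3% of all probes, and nothing is read from the difference. The median ratio was 1.12 over the Ms4a probes, with no probe between 0.55 and 1.69, and -0.033 over all probes. The highest members were already known when the family was chosen, so these sizes are a description and not a test of the family against other probes. Averaged by gene, positive calls numbered 5 of 10, negative calls 2, and 3 genes did not pass, the median being 0.91 against -0.033 over all genes. The high values belonged to Ms4a4c, Ms4a6c, Ms4a4d and Ms4a1, with Ms4a8a at an intermediate ratio. The remaining genes, Ms4a7, Ms4a20, Ms4a10, Ms4a18 and Ms4a19, lay within 0.5 of 0 when averaged by gene.

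**Figure D1:**
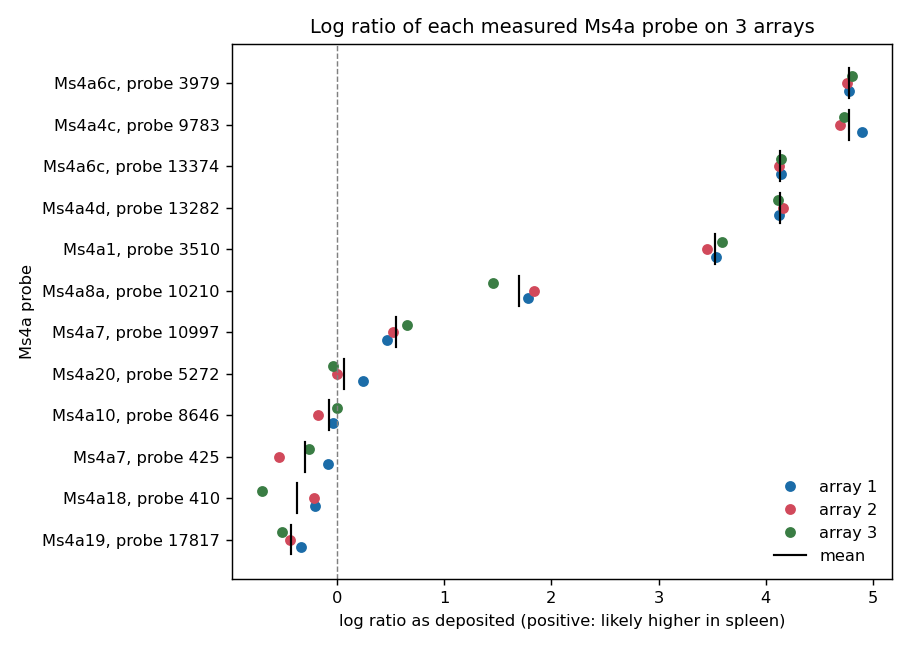
Log ratio as deposited (x axis) of the 12 measured Ms4a probes (y axis, ordered by mean), with a point for each of the 3 arrays and a bar for their mean. The probes of Ms4a4c, Ms4a6c, Ms4a4d and Ms4a1 lie between 3.45 and 4.90 on every array, Ms4a8a lies between 1.46 and 1.84, and the others lie near 0.

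Ms4a1, the CD20 gene of B cells, had log ratios of 3.54, 3.45 and 3.60 on arrays 1 to 3. All 3 arrays were high and lay within 0.14 of each other. The mean was 3.53 ± 0.072 (SD, n = 3), with a 95% interval from limma of 3.36 to 3.69 and a limma adjusted p of 1.33e-07. That is 11.5-fold if the base is 2 and 34.1-fold if the logs are natural, and the probe ranked 84 from the highest of all probes. B cell genes of a list were positive too: 6 of 6 measured genes passed, against 33.2% of all genes, with a median of 2.36 and a range of 0.69 to 3.91. Ms4a1 therefore stood between the complement receptor Cr2, at 3.91, and the BAFF receptor Tnfrsf13c, at 3.21 among these genes. The pre-B cell receptor-related gene Vpreb3 had 2.72 and the B cell coactivator Pou2af1 had 2.01. Positive lymphocyte genes were part of how the direction was read, so the signs of this list do not independently show it. In the MHC class II list, whose proteins present antigen on B cells and dendritic cells, H2-Oa was the 1 measured gene of 4 with a probe, and it was positive at 2.61.

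Ms4a4c, a gene of the Ms4a4 group known from activated and interferon-exposed immune cells, gave 4.90, 4.69 and 4.74 on arrays 1 to 3. Its mean was 4.78 ± 0.11 (SD, n = 3), with a 95% interval of 4.60 to 4.95 and a limma adjusted p of 6.79e-08. This corresponds to 27.4-fold in base 2 or 119-fold in natural logs. Ms4a4d, a second gene of that group, gave 4.12, 4.16 and 4.12, so its 3 arrays differed by no more than 0.044. Its mean was 4.13 ± 0.025 (SD, n = 3), and it lay below Ms4a4c on every array as deposited. That order depends on the processing: with a running median over 5 probe numbers on either side subtracted, Ms4a4c had 3.95 and Ms4a4d 4.06. The limma adjusted p was 6.99e-08, and the fold 17.5 in base 2 or 62.3 in natural logs.

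Ms4a6c, a monocyte and macrophage gene, was measured by 2 probes. The first, probe 3979, gave 4.78, 4.76 and 4.80, with a mean of 4.78 ± 0.022 (SD, n = 3) and a limma adjusted p of 6.69e-08. The second, probe 13374, gave 4.14, 4.13 and 4.14, with a mean of 4.14 ± 0.0091 (SD, n = 3) and a limma adjusted p of 6.99e-08. Both probes were high on all arrays, and their ranges did not overlap. The first exceeded the second by 0.64, 0.63 and 0.66 on arrays 1 to 3, a mean difference of 0.64 ± 0.014 (SD, n = 3). With the same running median subtracted, the probes had 5.21 and 3.80 and differed by 1.41. An exact sign-flip test over 3 arrays gave p = 0.25, the smallest it can give. Among the 1012 genes with 2 measured probes, the median difference between probes was 0.29, and 19.3% had a larger difference than Ms4a6c, both on the values as deposited.

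The family was chosen with its highest ratios already known, so the spread of these ratios between arrays is given as a description. The SD over 3 arrays was 0.119 for the median probe and 0.149 for the median of the 128 probes with a mean of 3 or more, to which 5 Ms4a probes belong. The second Ms4a6c probe had the lowest SD of those 128 probes, and 0.442% of all probes had a lower one. Ms4a4d had the fifth lowest of the 128, with 3.13% of all probes below it. The SD of Ms4a1 (0.072) was under the median, with 24.4% of all probes below it, and that of Ms4a4c (0.11) was close to the median, with 46.3% below. An SD from 3 values is itself imprecise, and limma's moderation set the 95% intervals of the 5 probes to between 0.154 and 0.175 on either side of the mean.

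**Figure D2:**
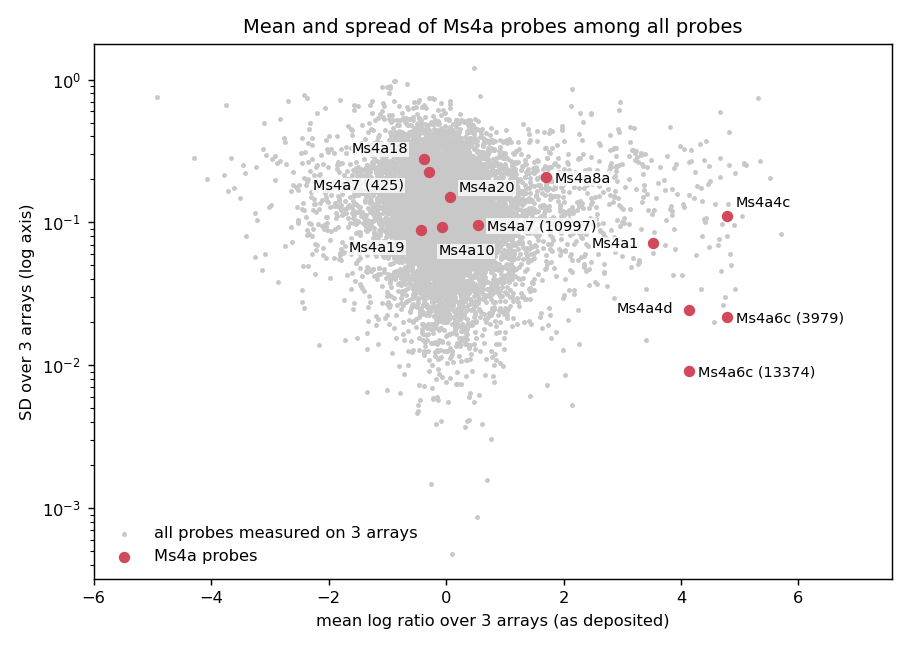
Mean log ratio over 3 arrays (x axis) and SD over the arrays (y axis, log scale) of all 11086 measured probes in grey and the 12 Ms4a probes in red. The second Ms4a6c probe, with a mean of 4.14 and an SD of 0.0091, lies at the lower edge of the probes with high ratios.

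Ms4a4c, Ms4a6c and Ms4a4d, which had the highest ratios of the family as genes under the deposited values and both running medians, are close neighbours on the plus strand of chromosome 19, and the sequence before their annotated starts was therefore compared. RefSeq promoter sequence of GRCm38.p6 was matched for 10 of the 13 genes, with 11 starts in all, and Ms4a1, Ms4a20 and Ms4a6d were not matched. The 250 bases before the start are printed 5′ to 3′ for the 3 high genes and for Ms4a6b, whose probe was at 0 on every array. They lie at chr19:11407411-11407660 for Ms4a4c, chr19:11469118-11469367 for Ms4a6c, chr19:11536544-11536793 for Ms4a4d and chr19:11518309-11518558 for Ms4a6b, all on the plus strand. Capitals mark GAGGAA, the form of the PU.1 core searched for, in Ms4a4c, and in Ms4a6c and Ms4a6b the stretch that aligned between them.
Ms4a4c: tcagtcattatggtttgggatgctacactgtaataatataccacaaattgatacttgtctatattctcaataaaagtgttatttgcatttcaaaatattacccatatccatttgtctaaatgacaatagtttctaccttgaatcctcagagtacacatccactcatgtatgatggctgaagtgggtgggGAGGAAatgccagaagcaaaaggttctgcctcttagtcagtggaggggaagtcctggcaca
Ms4a4d: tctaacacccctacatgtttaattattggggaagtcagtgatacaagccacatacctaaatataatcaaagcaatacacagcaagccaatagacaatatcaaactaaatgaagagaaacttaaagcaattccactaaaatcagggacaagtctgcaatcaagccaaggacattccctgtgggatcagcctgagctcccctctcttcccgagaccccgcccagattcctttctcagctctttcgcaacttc
Ms4a6c: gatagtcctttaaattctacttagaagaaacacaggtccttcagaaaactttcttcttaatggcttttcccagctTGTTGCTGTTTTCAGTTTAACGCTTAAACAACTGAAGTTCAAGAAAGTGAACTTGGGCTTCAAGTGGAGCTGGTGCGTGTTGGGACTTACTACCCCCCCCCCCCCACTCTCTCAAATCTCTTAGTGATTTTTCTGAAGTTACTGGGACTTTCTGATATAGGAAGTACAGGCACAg
Ms4a6b: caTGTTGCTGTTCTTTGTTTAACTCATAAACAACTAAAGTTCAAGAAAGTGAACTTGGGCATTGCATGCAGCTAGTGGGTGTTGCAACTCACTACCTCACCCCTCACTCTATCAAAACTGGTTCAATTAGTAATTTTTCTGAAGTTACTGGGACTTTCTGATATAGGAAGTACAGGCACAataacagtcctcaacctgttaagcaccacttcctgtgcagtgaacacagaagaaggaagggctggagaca

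The Ms4a6c and Ms4a6b sequences aligned over 182 columns, of which 152 were identical (83.5%). Their local alignment score, 119, stood apart from the next highest of the 55 pairs, 22.5 for Ms4a10 and Ms4a18. The promoters of Ms4a4c and Ms4a4d, both with high ratios, held no such stretch. Both strands were searched for each motif. GAGGAA, a form of the core bound by PU.1 (a factor of myeloid and B cells), was found before Ms4a4c, 61 bases from the start. None of the other 10 sequences held GAGGAA, which occurs in 23.3% of 32851 promoters of this length. Other forms of that core were not searched for, so a lack of PU.1 sites cannot be read for those sequences. GAAA followed after any 2 bases by a second GAAA (an interferon response core), or its reverse complement, was found before Ms4a18 alone of the 11, which had a negative ratio, against 2.98% of all promoters. TTCNNNGAA (a STAT site, 7.02% of promoters) and TATAAA (the TATA box, 12.4%) were found in none of the 11. Other forms of the interferon response core, the STAT site and the TATA box were not searched for either. A lack of such sites therefore cannot be read. The 2 matches lay in different sequences and overlapped no other motif searched. A match describes letters in this window and shows no binding. No probe or transcript sequences were used, so how far a probe of one Ms4a gene binds RNA of another was not tested.

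Ms4a8a, an Ms4a gene described in intestinal epithelium and in alternatively activated mouse macrophages, gave 1.78, 1.84 and 1.46 on arrays 1 to 3. All arrays were positive, and array 3 was the lowest. The mean was 1.69 ± 0.21 (SD, n = 3), with a 95% interval of 1.48 to 1.91 and a limma adjusted p of 7.32e-06, which is 3.24-fold in base 2 or 5.44-fold in natural logs. Its values lay below those of Ms4a1 and above those of every other remaining probe on each array.

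Ms4a7, a macrophage gene also used as a marker of macrophages at the borders of the brain, was measured by 2 probes of opposite sign. Probe 10997 gave 0.46, 0.52 and 0.65, with a mean of 0.55 ± 0.096 (SD, n = 3) and a limma adjusted p of 0.000498. Probe 425 gave -0.090, -0.54 and -0.26, with a mean of -0.30 ± 0.23 (SD, n = 3) and a limma adjusted p of 0.0291. The probes did not overlap, and the first was higher on every array, by 0.84 ± 0.26 (SD, n = 3) on average, and by 0.53 with a running median over 20 probe numbers on either side subtracted. Calls in opposite directions were found for 73 of 1012 genes with 2 measured probes (7.21%). Their average, 0.12 ± 0.12 (SD, n = 3), did not pass (limma adjusted p = 0.154), so the direction for the gene is uncertain. The call of probe 425 ended without array 2 (-0.18, limma adjusted p = 0.1003), and without that array the gene average passed (0.19, adjusted p = 0.0471).

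Ms4a20 gave 0.24, -0.0026 and -0.040, and Ms4a10, an Ms4a gene known from intestine, gave -0.040, -0.18 and -0.0010. Neither passed, with limma adjusted p of 0.497 and 0.388 and 95% intervals of -0.13 to 0.26 and -0.24 to 0.096. A ratio near 0 gives no level in either RNA. Ms4a18 gave -0.21, -0.22 and -0.70, with array 3 the lowest. Its mean was -0.38 ± 0.28 (SD, n = 3) with a limma adjusted p of 0.0191, and without array 3 it did not pass (-0.21, adjusted p = 0.0971). The median ratio of the 6 measured probes within 5 probe numbers of it was -0.29, and the part of such neighbours in its ratio was not tested. Ms4a19 gave -0.34, -0.44 and -0.51, all below 0. Its mean was -0.43 ± 0.088 (SD, n = 3), a ratio of 1.35-fold in base 2 or 1.54-fold in natural logs on the likely reference side, with a limma adjusted p of 0.00147.

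In the order of means as deposited, neighbours whose arrays overlapped were Ms4a6c (probe 3979) and Ms4a4c, which differed by 0.0040 ± 0.11 (SD, n = 3), and Ms4a6c (probe 13374) and Ms4a4d, which differed by 0.0044 ± 0.034 (SD, n = 3). The steps from Ms4a4c to the second Ms4a6c probe (0.64), from Ms4a4d to Ms4a1 (0.60), from Ms4a1 to Ms4a8a (1.83) and from Ms4a8a to the higher Ms4a7 probe (1.15) were larger than the spread, with no overlap of arrays. The step from there to Ms4a20 (0.48) also had no overlap. From Ms4a20 down to Ms4a19, every neighbour overlapped the next. The order among the high genes changed with the running median over 5 probe numbers, where Ms4a6c averaged 4.51, Ms4a4d 4.06, Ms4a4c 3.95 and Ms4a1 3.47.

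In chromosomal order, taken from the RefSeq table of GRCm38.p6 for names and order, the cluster holds 21 Ms4a genes with 1 other protein-coding gene between them, Gm8369. A probe was listed for 13 of the 21. Ms4a10, Ms4a18, Ms4a8a, Ms4a20, Ms4a19 and Ms4a13 come first, and of the 5 of these that were measured, Ms4a8a was the 1 positive past the test. Ms4a1 follows, then Ms4a7, and then Ms4a4c, Ms4a6c, Ms4a6b, Ms4a4d and Ms4a6d. The highest genes Ms4a4c, Ms4a6c and Ms4a4d therefore lay next to each other among measured genes only. Ms4a4b, with no probe listed, lies between Ms4a4c and Ms4a6c. Gm8369, with no probe listed, and Ms4a6b, listed at 0, lie between Ms4a6c and Ms4a4d. Of the 20 protein-coding genes flanking the cluster, 10 on each side, 1 was measured: Mrpl16, a mitochondrial ribosomal protein gene, with -0.32, -0.11 and -0.24. Its mean was -0.22 ± 0.11 (SD, n = 3) with a limma adjusted p of 0.0224, so whether high ratios extend beyond the cluster cannot be read from these probes.

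**Figure D3:**
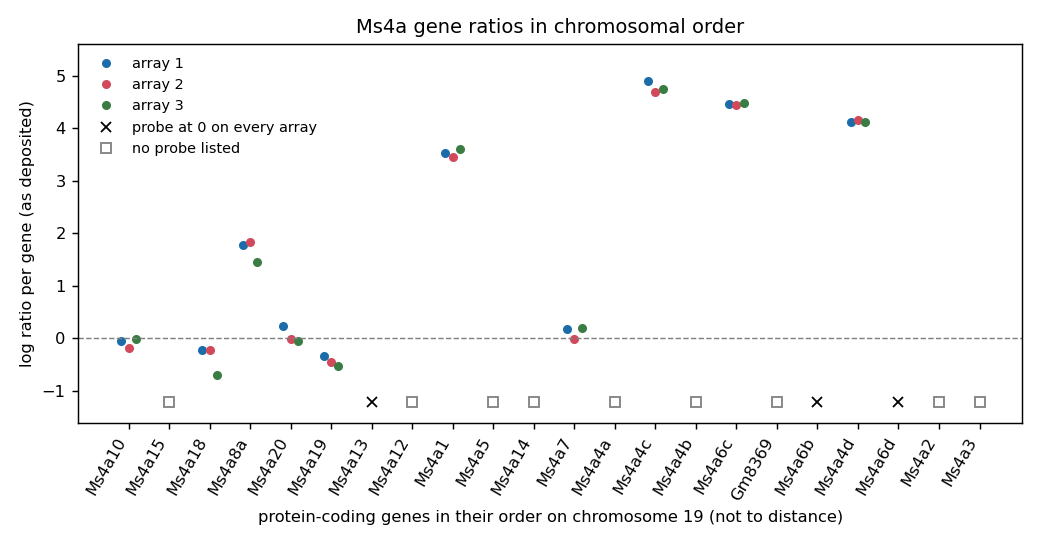
Log ratio per gene (y axis, probes of a gene averaged) on each of 3 arrays for the protein-coding genes from Ms4a10 to Ms4a3, in their order on chromosome 19 (x axis, not to distance). Crosses are probes at 0 on every array and squares are genes with no probe listed. Ms4a1, Ms4a4c, Ms4a6c and Ms4a4d lie above 3.4 on every array.

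Genes whose 3 array values lay nearest to a member, by Euclidean distance, were named for each Ms4a gene past the gene test. For Ms4a4c they were the IgA heavy chain Igha (distance 0.13), the polymeric immunoglobulin receptor Pigr (0.16) and the chromatin organiser Satb1 (0.19). For Ms4a6c they were the chymotrypsin genes Ctrl (0.15) and Ctrb1 (0.20) and the light chain gene Iglv1 (0.31). Ms4a4d lay nearest to the pancreatic elastase Cela3b (0.18), Gmfg, a leukocyte regulator of actin (0.25), and the colipase Clps (0.32). Ms4a1 lay nearest to the lectin receptor gene Clec4b1 (0.11), the secreted Wnt antagonist Frzb (0.23) and the serotonin transporter Slc6a4 (0.25). Within a distance of 0.5, 8 genes lay near Ms4a4c, 9 each near Ms4a6c and Ms4a4d, and 10 near Ms4a1. Ms4a8a had 77 such genes, led by the T cell receptor chain Cd3g (0.082), the tetraspanin Tspan32 (0.094) and the arylacetamide deacetylase Aadac (0.096). For Ms4a18, with 716 genes within that distance, the nearest were Cpne3 (0.065), Svs6 (0.074) and Zfp957 (0.075), and for Ms4a19, with 1290, Tcea3 (0.031), Ppp1r42 (0.033) and Pgrmc2 (0.047). The measure rests on 3 arrays of the same RNAs, and likeness is of ratios alone.

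The lists of cell types in which Ms4a genes are known differed in coverage. Counts of calls in them stand beside 33.2% positive and 37.1% negative over all genes. The macrophage and monocyte list had a median of 2.46 over 4 measured genes, of which 1 did not pass and 3 were positive, namely the iron exporter Slc40a1 at 4.24, the calcium-binding protein Aif1 at 3.58 and the protease Ctss at 1.35. Ms4a6c (4.46 as a gene) exceeded all of them, whereas Ms4a7 (0.12), like the high-affinity IgG receptor Fcgr1 (0.13, limma adjusted p = 0.105), did not pass. The Ms4a7 value averages 2 probes called in opposite directions, and the Fcgr1 value averages 5 probes. Neither average shows that every probe lay near 0. In the T cell list 5 of 6 were positive and 1 negative, with a median of 2.58, led by Satb1 (4.69), the CD8 co-receptor chain Cd8a (3.88), the receptor zeta chain Cd247 (2.91) and Cd4 (2.24), with the receptor complex gene Cd3d at -0.85. Each of the 7 measured interferon-induced genes was positive, against 33.2% of all genes, over a range of 0.25 to 2.19 (median 1.47). The exonuclease Isg20 had 2.19, the GTPase Igtp 2.12, the chemokine Cxcl10 1.54 and Stat2 1.47, so Ms4a4c at 4.78 lay above each of the 7. Of 13 neutrophil genes listed, 6 had a probe, and the 3 measured ones were positive, with Ngp at 5.34, S100a9 at 4.66 and Csf3r at 1.37.

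For the IgE receptor arm of the family, Ms4a2 has no probe listed and none of the 14 mast cell and basophil genes was measured, 2 having a probe. The partner of Ms4a2 in that receptor is the signalling chain Fcer1g, which other Fc receptors share. Fcer1g was the 1 of 3 measured Fc receptor genes past the test, at 1.18 ± 0.042 (SD, n = 3, limma adjusted p = 3.97e-06). Over all genes 70.3% passed, and nothing is read from that count. Fcgrt at -0.13 and Fcgr1 at 0.13, the latter an average over 5 probes, did not pass. The Fcgrt value is an average over 4 probes that did not all lie near it. Its probe 177 had -0.95 and was called negative (limma adjusted p = 0.000245), so the direction for Fcgrt is uncertain. Tmem176a and Tmem176b, genes related to the family by sequence, have no probe listed.

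Tetraspanins are another family of small proteins that cross the membrane several times, some of them partners of B cell surface proteins. They went both ways: 4 of 12 measured genes were positive and 8 negative, against 33.2% and 37.1% of all genes, with a median of -0.42. Tspan13 had 2.18, Tspan32, a haematopoietic tetraspanin, 1.64, and Cd82 1.44, while Cd63, of lysosomes and platelet granules, had -1.94. The highest tetraspanin lay below Ms4a1, and the lowest far below the lowest Ms4a gene (-0.43). All 5 measured fibroblast and matrix genes were negative, against 37.1% of all genes, from -3.29 for Twist2 to -0.94 for Col3a1. Their median was -2.38, with Lamb1 at -3.24, Thbs2 at -2.38 and Timp3 at -2.20. No Ms4a gene reached the range of these matrix genes. Negative matrix genes were part of how the direction was read, so their signs do not independently show it.

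**Figure D4:**
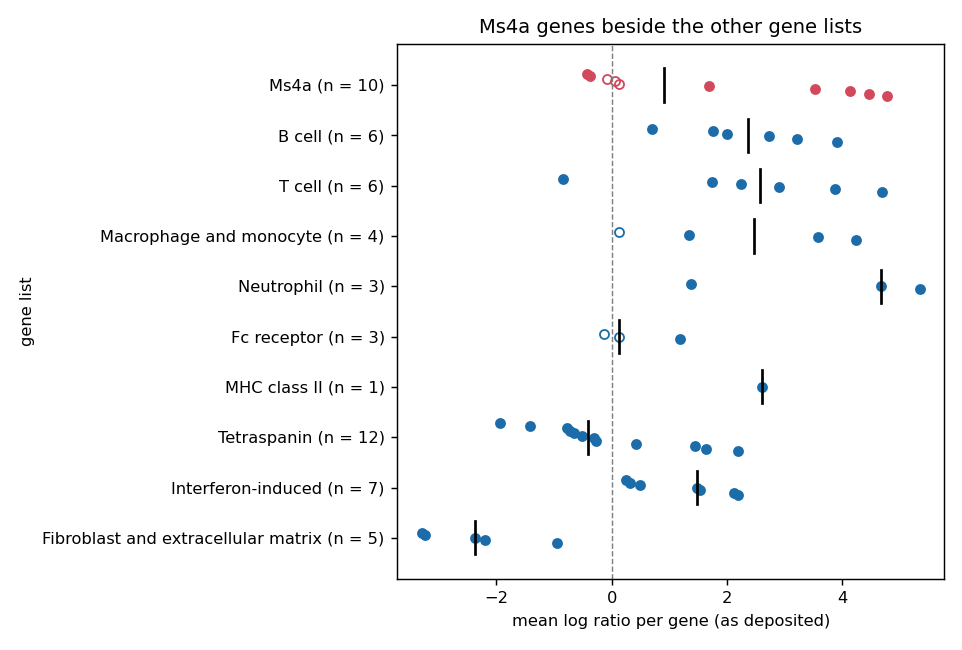
Mean log ratio per gene (x axis) of the 10 measured Ms4a genes (red) and of the measured genes of 9 other lists (blue). Filled points passed the limma gene test, open points did not, and black bars are medians. The Ms4a genes fall into high ratios from 3.53 to 4.78, Ms4a8a at 1.69 and values near 0.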

How the data were processed

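The authors deposited 1 table of signed log ratios, or log fold values, for 16273 probes on 3 two-colour arrays. Dyes and amplification are given per the labels. How images were read, background was handled and values normalized is not given in these sources, nor is the numerator or the base of the logs. Exact 0 was read as no measurement. Ratios of probes measured on all 3 arrays, and their means over the probes of a gene with 1 symbol each, were set against 0 in an intercept model of limma 3.58.1 (R 4.3.3) with moderated variances and two-sided p-values, adjusted by Benjamini and Hochberg and called under 0.05. The members and the 11 gene lists were chosen with earlier results of these data known. Named genes were every Ms4a probe, the 3 nearest genes of each called Ms4a gene, up to 4 called genes of largest size per list and the 10 genes flanking the cluster on each side. Other list members stand as examples or range limits, chosen after their values were seen. Sequences are from RefSeq, GRCm38.p6, aligned with Biopython 1.88. Other settings tried were centring, scaling, moderation, thresholds, missing values, subtraction of a running median (5 or 20 probe numbers to each side), probe averaging and each array left out.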

Additional observations from a re-analysis of the deposited data

How the results depend on the processing

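Of 306 recomputed values of single Ms4a probes and genes, 276 kept their direction and their side of the threshold, 21 lost the call, 2 gained it and 7 changed sign. These values are not independent, because a gene measured by 1 probe repeats the ratio of that probe. Some settings, such as the stricter threshold or no moderation, leave every ratio unchanged. Ms4a1, Ms4a4c, Ms4a6c, Ms4a4d and Ms4a8a kept a positive call under every setting run. Their sizes moved with the running median over 5 probe numbers: Ms4a4c from 4.78 to 3.95, Ms4a6c probe 3979 from 4.78 to 5.21 and probe 13374 from 4.14 to 3.80, so Ms4a4c then lay below Ms4a4d (4.06). Against a 1.5-fold change in base 2, 2104 probes, 1208 genes and 6 Ms4a probes passed, and without moderation 4609 probes and 2770 genes did. The change in sign concerned Ms4a10 with the running median over 5 (0.026) and 20 probe numbers (0.021), Ms4a7 averaged by gene with 5 (-0.14), and Ms4a20, between -0.021 and 0.12 when each array was left out. With exact 0 kept, 5481 of 16273 probes passed. Of the called Ms4a probes, Ms4a18 and Ms4a7 probe 425 also lost the call without moderation (unmoderated adjusted p = 0.197 and 0.203), with 0 kept (0.203 and 0.211) and at an adjusted p under 0.01. Ms4a18 lost it with the running median over 5 (-0.11, adjusted p = 0.360) and Ms4a7 probe 425 with that over 20 (-0.14, adjusted p = 0.109). With the running median over 5, Ms4a7 probe 10997 had 0.19, probe 425 -0.47 and Ms4a19 -0.73, all still called. Probe 10997 had 1 measured neighbour within 5 probe numbers, at 0.18, and the running median included the probe's own value. Its 0.19 therefore rests on that 1 neighbour, and it enters the Ms4a7 average of -0.14 as well. The cause of the other changes was not tested. No paired analysis was possible because the arrays form 1 group.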
